A study of Danio rerio with 3 samples.

Results

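CMN Precursor and CMN are a pair of cell classes that the authors named in zebrafish cells sorted for EGFP from embryos carrying the olig2:EGFP transgene. The members were chosen by these names in the integrated table of the 3 stages, with the cells named MEP Glia left out, and the stage of each cell was read from the same table. The rule gave 473 of 6264 cells, 203 of them CMN Precursor and 270 CMN. They were 7.61% of the 24 hpf library (hpf, hours post fertilisation), 11.6% of the 36 hpf library and 4.01% of the 48 hpf library.

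The study had 1 single-cell RNA library per stage, made from untreated wild-type embryos of the strain Tg(olig2:EGFP), which all 3 groups carried. In this line the regulatory region of olig2 drives EGFP, and the sort therefore kept cells with the reporter, whether or not they still made olig2. Embryos were pooled in each library, their number is not stated in the labels, and no value has a replicate. Every interval below is a 95% interval that covers counting error or the spread between cells of 1 library, never the spread between embryos.

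Motor neurons arise from dividing progenitors, leave the cell cycle, and then switch on the genes of a mature neuron. In the hindbrain and midbrain, cranial motor neurons follow this course, and phox2a and isl1 are known as markers of such cells. phox2a encodes a homeodomain transcription factor of the oculomotor and trochlear nuclei, and isl1 encodes a LIM homeodomain transcription factor of newly formed motor neurons. The labels give the source as cells of the spinal cord and do not spell out CMN. The tables used here give no values per gene, so neither marker could be read and the class names could not be checked against them. The cells are described by the authors' names alone.

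By the integrated names, cells of the pair went from mostly CMN Precursor to mostly CMN over the stages. At 24 hpf 110 cells were CMN Precursor and 29 were CMN, at 36 hpf 75 and 163, and at 48 hpf 18 and 78. CMN cells were thus 20.9% of the pair at 24 hpf (exact binomial interval 14.4 to 28.6), 68.5% (62.2 to 74.3) at 36 hpf and 81.3% (72.0 to 88.5) at 48 hpf. The order was that of age. The interval at 24 hpf was clear of those at both later stages, and those at 36 and 48 hpf overlapped slightly. Each stage also has a table of its own, called the stage table here. By its names, given below, CMN Precursor was the larger class at every stage.

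The step from 24 to 36 hpf was 47.6 percentage points (interval of the difference 37.7 to 56.3), and the step from 36 to 48 hpf was 12.8 points (1.81 to 22.4). When the cells of each stage were weighted to 1 distribution of UMIs (counts of single RNA molecules), which kept the equivalent of 28 cells per stage, the shares were 37.7%, 54.2% and 79.0%. The order of the stages was the same, and the step from 24 to 36 hpf was then 16.5 points. These weighted values have no interval, so whether that step exceeds counting error was not tested. For each CMN Precursor cell there were 0.264 CMN cells at 24 hpf, 2.17 at 36 hpf and 4.33 at 48 hpf. The absolute counts of the rarer class were small at both ends, 29 CMN cells at 24 hpf and 18 CMN Precursor cells at 48 hpf. The class named Pre-MN and the motor neuron classes MN1 to MN5 are set beside them as another precursor class with its motor neurons. There MN1 to MN5 already held 76.3% of the cells at 24 hpf (142 of 186), and they held 76.3% at 36 hpf (358 of 469) and 83.5% at 48 hpf (813 of 974). From 24 to 36 hpf the share of MN1 to MN5 differed by -0.0115 points (-7.21 to 7.74), whereas that of CMN differed by 47.6 points, or 16.5 at equal depth. No value at equal depth is given for MN1 to MN5. With 1 library per stage the steps were not tested against each other.

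**Figure D1:**
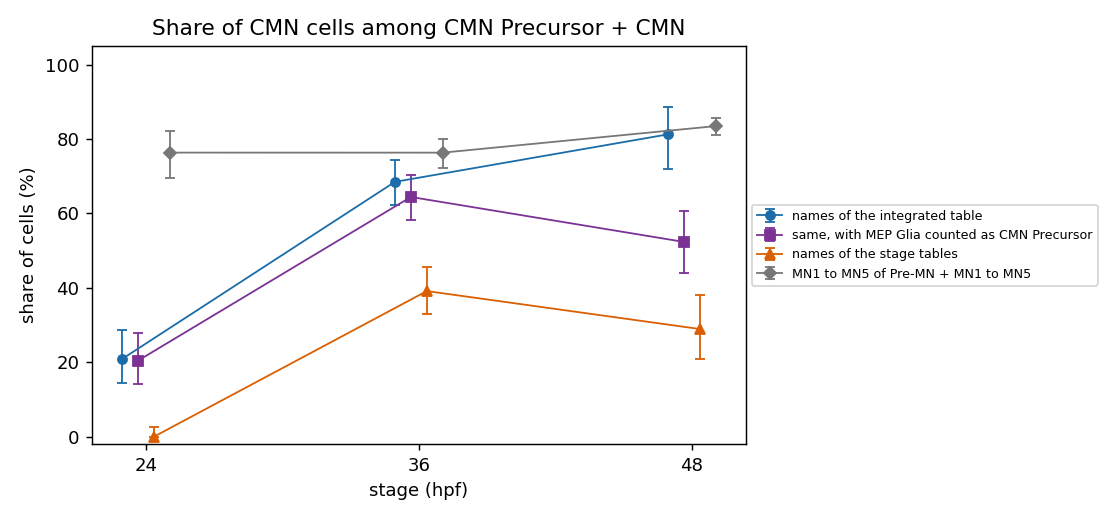
Share of CMN cells among the cells of CMN Precursor and CMN by stage in hpf, in percent, with exact 95% binomial intervals, under 3 ways of naming the cells, and beside them the share of MN1 to MN5 among Pre-MN and MN1 to MN5 cells. By the integrated names the share goes from 20.9% to 68.5% and 81.3%, whereas with MEP Glia counted as CMN Precursor or with the names of the stage tables the highest share is at 36 hpf.

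The last step depended on how the classes were cut. CMN Precursor and MEP Glia, the cells at the motor exit points, share 1 cluster number in the integrated table, and CMN holds a cluster number of its own. The authors split that shared cluster by name into 110 CMN Precursor and 3 MEP Glia cells at 24 hpf, 75 and 15 at 36 hpf, and 18 and 53 at 48 hpf. With MEP Glia counted as CMN Precursor, the CMN share was 20.4% at 24 hpf, 64.4% (58.2 to 70.3) at 36 hpf and 52.3% (44.0 to 60.6) at 48 hpf, so that the step from 36 to 48 hpf turned to -12.1 points (-22.3 to -1.75). The names of the stage tables gave a like order. By them CMN was 0 of 139 cells at 24 hpf (upper limit 2.62%), 92 of 235 at 36 hpf (39.1%, 32.9 to 45.7) and 33 of 114 at 48 hpf (28.9%, 20.8 to 38.2). The step from 36 to 48 hpf was -10.2 points by these names, and its interval included 0 (-20.6 to 0.969). Of the 81 cells named CMN Precursor in the 48 hpf stage table, 31 were MEP Glia by the integrated names. None of the 143 at 36 hpf were. The stage-table names are therefore not a separate check on the MEP Glia setting, and their share without MEP Glia was not computed. By the integrated names the CMN share was larger at 36 than at 24 hpf, with MEP Glia split off or counted in. That setting moved only 3 cells at 24 hpf and 15 at 36 hpf. By the stage-table names the share could not be smaller at 36 than at 24 hpf, since no 24 hpf cell was named CMN. Of the 3 ways of naming, only the integrated names with MEP Glia split off gave a larger share at 48 than at 36 hpf. The other ways both counted MEP Glia cells as CMN Precursor at 48 hpf.

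The names of the same barcodes in the stage tables showed that the line between the classes was drawn at a different place in each table. At 24 hpf 100 of the 110 CMN Precursor cells had that name in the stage table as well (90.9%, 83.9 to 95.6), and 28 of the 29 CMN cells were also named CMN Precursor there. The 24 hpf table therefore has 1 class where the integrated table has 2 for nearly all of these cells. The other 10 CMN Precursor cells had the names V2 IN Precursor (4 cells), pMN2 (2), pMN3 (2), Pre-MN (1) and Pre-OPC1 (1), and the remaining CMN cell was GABAergic IN.

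At 36 hpf the stage table used both names and gave CMN to fewer cells than the integrated table. Of the 75 CMN Precursor cells 64 were CMN Precursor there (85.3%, 75.3 to 92.4). Of the 163 CMN cells 90 were CMN (55.2%, 47.2 to 63.0) and 70 were CMN Precursor. No CMN Precursor cell of the integrated table was CMN in the stage table, so the disagreement ran in 1 direction. The 11 CMN Precursor cells with a name outside the pair carried 7 different names, with pMN3 (4 cells) and pMN1 (2 cells) the most frequent.

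At 48 hpf the name CMN Precursor stood for different cells in the tables. None of the 18 CMN Precursor cells of the integrated table had that name in the stage table (upper limit 18.5%). The stage table named 13 of them Lateral FP, a name that refers to the floor plate of the neural tube, 3 RG, 1 V3 IN and 1 CMN. In the other direction, the 81 cells named CMN Precursor in the 48 hpf table were CMN (48 cells), MEP Glia (31), MN4 (1) and Mes1 (1) in the integrated table. The 33 cells named CMN there were CMN (29), Retinal Progenitor (3) and CMN Precursor (1). A statement on CMN Precursor at 48 hpf is thus about 18 cells by the integrated names and about 81 others by the stage table, and the tables share no cell of that name.

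In the 36 hpf layout (UMAP, a plane without units in which cells of similar profile lie close) the cells formed a column along the second axis. Its median was -2.58 for cells named CMN Precursor in both tables, -5.08 for CMN cells named CMN Precursor in the stage table, and -7.19 for cells named CMN in both. The CMN cells whose names differed between the tables at 36 hpf thus lay between the other groups. The 24 hpf layout is a separate one, and its positions cannot be set against those at 36 hpf. There the 28 CMN cells named CMN Precursor in the stage table had a median of -5.35 on the second axis. The 100 cells named CMN Precursor in both tables had a median of -3.92.

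At 48 hpf the CMN cells lay far out on the first axis, at a median of -17.2, in separate islands whose limits were set after their positions were seen. The upper island held 47 cells, all CMN by the integrated names and CMN Precursor by the stage table. The lower island held 34 cells, of which 29 were CMN in both tables, 1 was CMN named MN1 in the stage table, 3 were Retinal Progenitor and 1 was CMN Precursor in the integrated table. One CMN cell lay outside both islands. The CMN Precursor cells lay elsewhere, with medians of -4.77 and -3.57 on the axes, beside the Lateral FP cells at -4.50 and -2.11. Of the 15 nearest cells of each of these 18 cells in this layout, 77.4% on average were CMN Precursor of the integrated table, 5.56% Lateral FP, 5.19% Pre-V3 IN, 4.81% RG and 4.44% CMN. Apart from the single cell in the lower island and a few strays they formed a small group beside the floor plate cells and far from the CMN cells.

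**Figure D2:**
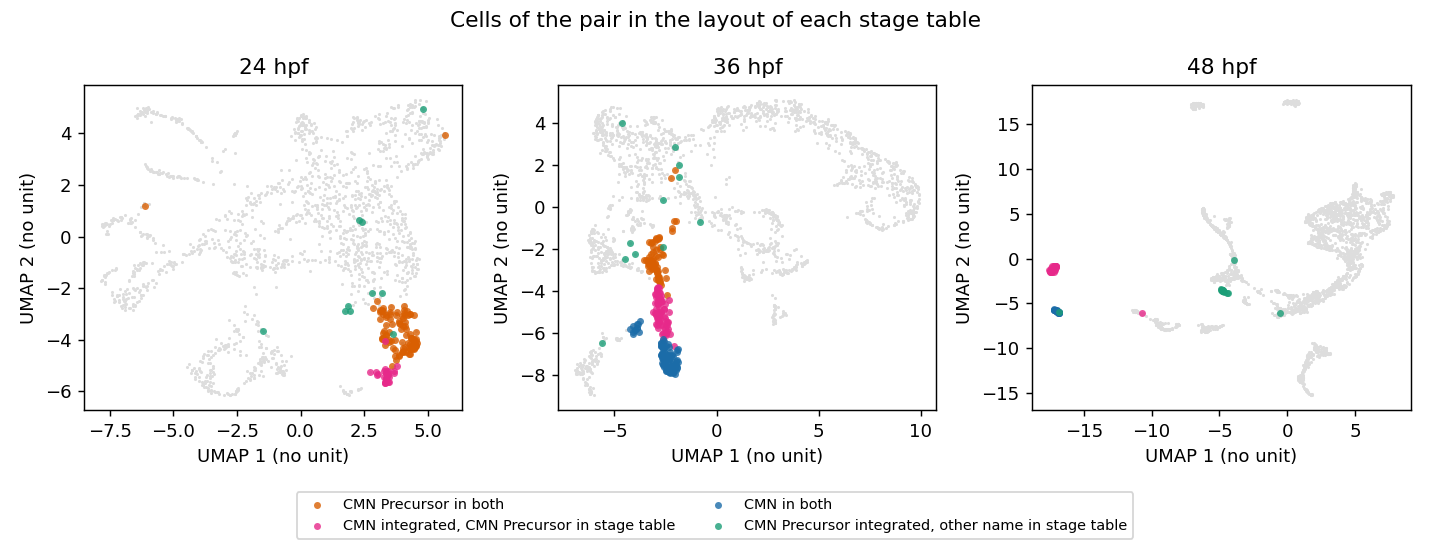
Position of the cells of the pair in the UMAP layout (no units) of each stage table, coloured by their names in the integrated and the stage table. The remaining cells of the library are grey, among them the few CMN cells with a stage-table name outside the pair. At 36 hpf the 70 CMN cells with the stage name CMN Precursor lie between the 64 cells named CMN Precursor in both tables and the 90 named CMN in both, and at 48 hpf the CMN cells form islands of their own.

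Within CMN, the median integrated scores of cells named CMN Precursor and cells named CMN in the stage tables differed in opposite directions at 36 and 48 hpf. At 36 hpf the 70 CMN cells named CMN Precursor in the stage table had a higher S score than the 90 named CMN (median -0.25 against -0.30, difference 0.05, interval 0.03 to 0.08). At 48 hpf the 48 CMN cells named CMN Precursor had a lower S score than the 29 named CMN (median -0.30 against -0.20, difference -0.11, -0.17 to -0.06). The S score is a value per cell that summarises genes of DNA synthesis relative to other genes of the same cell, and both stages are given here on the scale of the integrated table. The G2M score, which does the same for genes of division, went the same way, with differences of 0.05 (0.03 to 0.08) at 36 hpf and -0.08 (-0.11 to -0.02) at 48 hpf. By the scores of the stage tables themselves these differences were 0.0141 (-0.00757 to 0.0306) and -0.00134 (-0.0269 to 0.0201) in S score, and 0.00186 (-0.0250 to 0.0198) and -0.0107 (-0.0539 to 0.00884) in G2M score. On that scale no difference was clear of 0. The share of cells called S or G2M by the integrated table did not turn. It was lower in cells named CMN Precursor at 36 hpf (3 of 70 against 12 of 90) and at 48 hpf (0 of 48 against 4 of 29). The intervals of these shares overlapped at both stages.

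Detected genes at a given depth also differed in opposite directions at these stages. For each cell the detected genes were set against the median of the 100 cells of its library nearest in UMI count. On this log2 scale the CMN cells named CMN Precursor were lower than those named CMN at 36 hpf, by -0.19 (-0.23 to -0.12), and higher at 48 hpf, by 0.19 (0.11 to 0.28). At 36 hpf a cell named CMN Precursor exceeded a cell named CMN in 11.9% of all possible cell pairs, and at 48 hpf in 85.3%. UMIs themselves differed at 48 hpf, with a median of 6303 (5547 to 6919) for the 48 cells and 10214 (8189 to 12420) for the 29. At 36 hpf they were 3856 (3600 to 4056, 70 cells) and 3539 (3346 to 3779, 90 cells), which overlap.

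In the integrated layout the nearest CMN cells of the 36 hpf library were also compared. Of the 15 nearest 36 hpf CMN cells of a 48 hpf cell named CMN, 27.6% on average were named CMN in the 36 hpf table. For 48 hpf cells named CMN Precursor the value was 48.5%, against 56.3% in the 160 cells searched. For the 36 hpf cells themselves it was 90.7% for those named CMN and 7.14% for those named CMN Precursor. At 48 hpf the mean share of 36 hpf neighbours named CMN was thus lower for cells named CMN than for cells named CMN Precursor. The medians were 0% and 40%. Most neighbours were named CMN for 9 of the 29 cells (31.0%) and for 19 of the 48 (39.6%), which is closer. These values have no interval. This is a description of a layout of 2 axes, in which distances are only roughly kept.

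Both classes held their largest share of cells called S or G2M at 24 hpf, and CMN Precursor held more than CMN at each stage by the integrated table. Phases are the authors' calls, S or G2M where the higher of the scores was above 0 and G1 otherwise, and this rule gave the deposited phase in all 473 cells. Of the CMN Precursor cells 97 of 110 were called S or G2M at 24 hpf (88.2%, 80.6 to 93.6), 27 of 75 at 36 hpf (36.0%, 25.2 to 47.9) and 5 of 18 at 48 hpf (27.8%, 9.69 to 53.5). Of the CMN cells it was 19 of 29 (65.5%, 45.7 to 82.1), 16 of 163 (9.82%, 5.72 to 15.5) and 4 of 78 (5.13%, 1.41 to 12.6). Over all cells of the libraries the share was 65.8%, 38.6% and 20.1%, so it was largest at 24 hpf there too. CMN at 24 hpf and CMN Precursor at 36 hpf were near the share of their whole library. The intervals of the classes were clear of each other at 36 hpf only. The difference between the classes was 22.7 points at 24 hpf (4.48 to 43.2), 26.2 (14.0 to 38.8) at 36 hpf and 22.6 (3.08 to 48.6) at 48 hpf. Among cells of the classes paired on UMI count within a stage it was 10.3 points at 24 hpf (-15.2 to 34.5, 29 cells per class), 22.1 (6.76 to 36.4, 68 per class) at 36 hpf and 17.6 (-10.6 to 44.6, 17 per class) at 48 hpf. At equal depth the interval was above 0 at 36 hpf and included 0 at the other stages. With the classes named by the stage table instead, the 36 hpf difference was 0.167 points (-10.4 to 9.80), so it too depended on where the line between the classes was drawn.

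**Figure D3:**
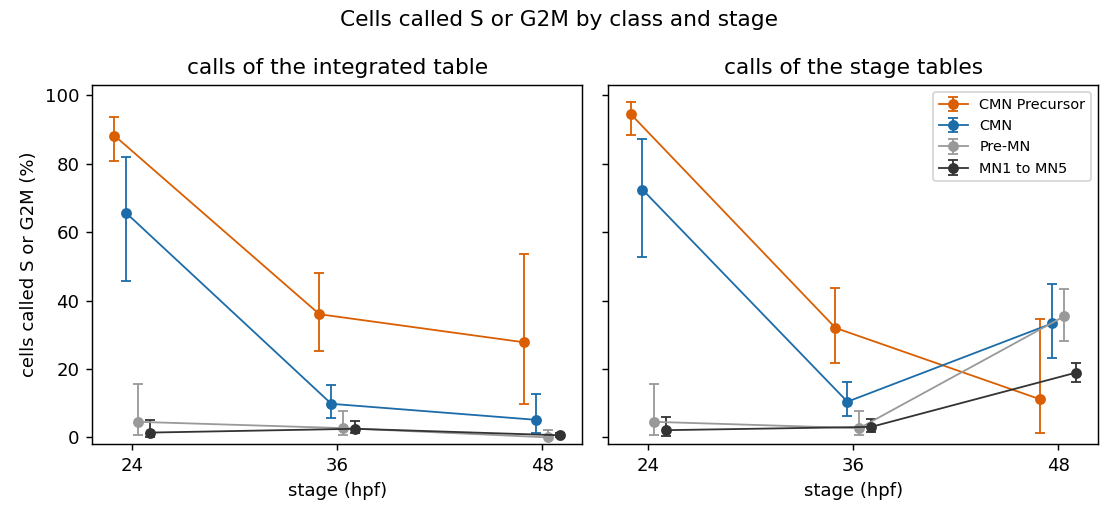
Percent of cells called S or G2M by class and stage in hpf, by the calls of the integrated table (left) and of the stage tables (right), with exact 95% binomial intervals. By the integrated calls CMN Precursor lies above CMN at each stage and both lie above Pre-MN and MN1 to MN5 at 24 hpf, whereas by the 48 hpf stage table CMN is at 33.3% and CMN Precursor at 11.1%.

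Motor neurons no longer divide, but whether their calls are a background for those of CMN was not tested. By the integrated calls the S or G2M share in MN1 to MN5 was 1.41% at 24 hpf (2 of 142), 2.51% at 36 hpf (9 of 358) and 0.615% at 48 hpf (5 of 813). In Pre-MN it was 4.55% (2 of 44), 2.70% (3 of 111) and 0% (0 of 161, upper limit 2.27%). The intervals of CMN lay above those of MN1 to MN5 at 24 and 36 hpf (45.7 to 82.1 against 0.171 to 5.00, and 5.72 to 15.5 against 1.16 to 4.72). At 48 hpf they overlapped narrowly (1.41 to 12.6 against 0.200 to 1.43). By these integrated calls CMN Precursor lay above Pre-MN at each stage, whereas by the stage-table calls at 48 hpf it was at 11.1% (2 of 18) and Pre-MN at 35.4% (57 of 161). Median UMIs were close at 24 hpf, 7512 in CMN and 8587 in MN1 to MN5, and at 36 hpf, 3656 and 4165, and were further apart at 48 hpf, 7130 and 4695.

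By the integrated calls, G2M was more frequent than S in both classes at 24 and 36 hpf. By the stage-table calls the order in CMN Precursor at 24 hpf was the opposite, with 53 S and 51 G2M cells. By the integrated calls CMN Precursor cells were 36.4% S and 51.8% G2M at 24 hpf (40 and 57 cells) and 5.33% S and 30.7% G2M at 36 hpf (4 and 23 cells). CMN cells were 20.7% S and 44.8% G2M at 24 hpf (6 and 13 cells), 3.68% and 6.13% at 36 hpf (6 and 10 cells), and 1.28% and 3.85% at 48 hpf (1 and 3 cells). The 18 CMN Precursor cells at 48 hpf had 3 S and 2 G2M calls, too few to order. The counts of CMN are small as well, and the orders of S and G2M have no interval. By the stage-table calls CMN at 24 hpf had 9 S and 12 G2M cells. Over all cells of the libraries the integrated calls were 33.8% S and 32.0% G2M at 24 hpf. They were 17.7% and 20.9% at 36 hpf, and 11.4% and 8.73% at 48 hpf. The order of S and G2M in the pair at 36 hpf was thus also that of the whole library.

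The scores behind these calls were spread widely at 24 hpf and gathered below 0 afterwards. The median S score of CMN Precursor was -0.00408 at 24 hpf (-0.11 to 0.12), -0.20 (-0.23 to -0.16) at 36 hpf and -0.12 (-0.15 to -0.08) at 48 hpf. That of CMN was -0.27 (-0.36 to -0.11), -0.28 (-0.29 to -0.26) and -0.26 (-0.30 to -0.23), and the intervals of all 3 stages overlap. The median G2M score of CMN Precursor was 0.13 (0.07 to 0.19), -0.10 (-0.13 to -0.06) and -0.04 (-0.11 to -0.01), and that of CMN -0.05 (-0.19 to 0.07), -0.17 (-0.18 to -0.16) and -0.16 (-0.18 to -0.14). CMN Precursor exceeded CMN in S score in 71.3%, 69.8% and 91.3% of all cell pairs at 24, 36 and 48 hpf, and in G2M score in 71.3%, 73.3% and 88.0%. By the scores of the stage table the direction at 48 hpf turned, to 33.3% in S score and 23.9% in G2M score. At 24 hpf these scores gave 64.3% and 56.6%, and at 36 hpf 67.8% and 67.1%. The difference of medians at 24 hpf was 0.27 (0.08 to 0.42) in S score and 0.18 (0.04 to 0.33) in G2M score by the integrated table. By the stage table it was 0.14 (-0.03 to 0.40) and 0.09 (-0.18 to 0.26), and both intervals included 0.

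Many calls rested on scores close to 0. The higher of the scores was within 0.1 of 0 in 14 of 110 CMN Precursor and 9 of 29 CMN cells at 24 hpf, in 15 of 75 and 16 of 163 at 36 hpf, and in 13 of 18 and 15 of 78 at 48 hpf. With a call required to exceed 0.1, 41.4% of the 24 hpf CMN cells were S or G2M instead of 65.5%. The difference between the classes was then 40.4 points at 24 hpf (19.0 to 59.5), 23.4 (11.8 to 35.8) at 36 hpf and 7.26 (-4.72 to 31.1) at 48 hpf. The 48 hpf difference was thus not detectable with this stricter call.

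**Figure D4:**
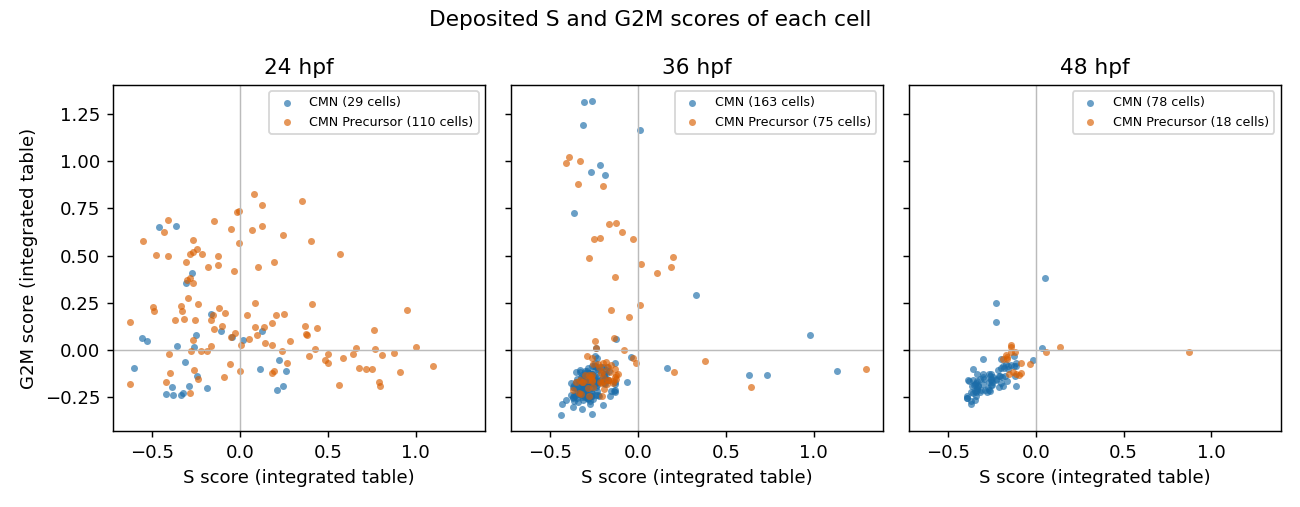
S score against G2M score of each cell of the integrated table, in 1 panel per stage, with CMN Precursor and CMN in different colours and lines at 0, above which a cell is called S or G2M. Both scores are at or below 0 in 23 of 139 cells at 24 hpf, in 195 of 238 at 36 hpf and in 87 of 96 at 48 hpf.

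At 48 hpf the order of the classes turned with the table used. By the stage-table calls, 26 of 78 CMN cells were S or G2M (33.3%, 23.1 to 44.9) and 2 of 18 CMN Precursor cells (11.1%, 1.38 to 34.7). In CMN 22 cells moved from G1 by the integrated calls to S or G2M by these, and for CMN Precursor 3 cells went from S or G2M to G1. The stage table gave 35.4% in Pre-MN, 18.9% in MN1 to MN5 (154 of 813) and 33.4% in all cells of the library (799 of 2394). The CMN share by these calls was thus near that of the whole library and near that of Pre-MN. In that table the higher score was within 0.1 of 0 in 73 of the 78 CMN cells. At 24 and 36 hpf the phase calls of the tables differed little. By the stage tables the share was 94.5% and 32.0% for CMN Precursor and 72.4% and 10.4% for CMN. The phase was the same in 95 of 110 and 72 of 75 CMN Precursor cells. In CMN it was the same in 25 of 29 and 160 of 163 cells.

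The S and G2M calls of CMN at 36 hpf came mostly from a small patch of cells. Of the 90 cells named CMN in both tables, 12 lay in a patch of the 36 hpf layout at -4.25 to -3.73 on the first axis, and the other 78 began at -2.72. All 12 were called S or G2M (8 G2M and 4 S, interval 73.5% to 100%) and all 78 were called G1 (upper limit 4.62%), with the same phases in both tables. The patch was chosen after its position was seen, and the layout and the scores come from the same cells' counts, so this split is a description and was not tested. Cells of the patch had a median of 5202 UMIs (4438 to 8966, lowest to highest) and 0.645% mitochondrial UMIs, and the other 78 cells 3431 UMIs (526 to 7565) and 1.11%. Among the 70 CMN cells named CMN Precursor in the stage table, 3 were called S or G2M (4.29%, 0.893 to 12.0), and among the 64 cells named CMN Precursor in both tables it was 19 (29.7%, 18.9 to 42.4).

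At 48 hpf 4 of the 29 cells named CMN in both tables were called S or G2M (13.8%, 3.89 to 31.7) and none of the 48 CMN cells named CMN Precursor in the stage table (upper limit 7.40%). All 4 calls in CMN at that stage by the integrated table thus fell on cells of the lower island. Of the 18 CMN Precursor cells, the 13 named Lateral FP held 2 calls, the 3 named RG held 1, and the single cells named V3 IN and CMN held 1 each.

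Depth varied more from library to library than from class to class. At 24, 36 and 48 hpf the median UMIs of CMN Precursor were 8393 (7367 to 9096), 3265 (2437 to 3775) and 5599 (4759 to 7598). Those of CMN were 7512 (6132 to 7803), 3656 (3510 to 3873) and 7130 (6674 to 7777), and in both classes the 36 hpf cells were the shallowest. Against the median of all cells of the same library, CMN Precursor was at 0.939, 0.715 and 0.970 and CMN at 0.841, 0.800 and 1.23. Both classes were shallow for their library at 36 hpf, where they ranked 23 and 22 from the highest of the 24 classes with at least 10 cells. The log2 ratio of CMN Precursor over CMN was 0.16 (-0.04 to 0.47), -0.16 (-0.59 to 0.05) and -0.35 (-0.61 to 0.10) at 24, 36 and 48 hpf, so at no stage did the medians differ beyond their intervals.

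Cells called S or G2M and cells called G1 differed in depth, not in 1 direction at every stage. In CMN Precursor at 24 hpf the 97 cells called S or G2M had a median of 8659 UMIs and the 13 called G1 3599. At 36 hpf it was 2643 in the 27 called S or G2M and 3375 in the 48 called G1, the other way round. In CMN the cells called S or G2M had the higher median at each stage. Their medians were 7512, 4964 and 9072 UMIs at 24, 36 and 48 hpf (19, 16 and 4 cells). The medians of those called G1 were 6891, 3598 and 7119 (10, 147 and 74 cells). These medians have no interval, and the value of 9072 rests on 4 cells. The part of depth in the calls was not tested beyond the cells paired on UMI count.

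CMN Precursor was the more uneven class in depth at 24 and 36 hpf. Its interquartile range was 3632 to 10622 UMIs at 24 hpf and 1547 to 4581 at 36 hpf, and that of CMN 5758 to 7913 and 2974 to 4377. Cells under 2000 UMIs were 19 of 110 CMN Precursor and 3 of 29 CMN cells at 24 hpf, 23 of 75 and 25 of 163 at 36 hpf, and 2 of 18 and 1 of 78 at 48 hpf. The shallow cells were a larger part of CMN Precursor than of CMN at each stage, as counts without a test.

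Detected genes per cell, like UMIs, were lowest at 36 hpf in both classes, but their highest medians were at 48 hpf and those of UMIs at 24 hpf. The median was 1912 in CMN Precursor (1808 to 1994) and 1605 in CMN (1484 to 1774) at 24 hpf, 982 (875 to 1084) and 1135 (1080 to 1173) at 36 hpf, and 2029 (1820 to 2344) and 2141 (2054 to 2259) at 48 hpf. CMN Precursor had more detected genes than CMN at 24 hpf (log2 ratio 0.25, 0.09 to 0.38), fewer at 36 hpf (-0.21, -0.38 to -0.05), and at 48 hpf the intervals overlapped (-0.08, -0.25 to 0.14). Without the cells under 2000 UMIs the ratio at 36 hpf was -0.03. Among cells paired on UMI count the ratios were 0.17 (-0.04 to 0.31), -0.09 (-0.33 to 0.15) and 0.09 (-0.25 to 0.37), whose intervals all include 0. These paired cells were fewer, 29, 68 and 17 per class. The CMN Precursor median of 982 genes was the lowest of the 24 classes with at least 10 cells at 36 hpf, and CMN with 1605 was 20 of 21 at 24 hpf.

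**Figure D5:**
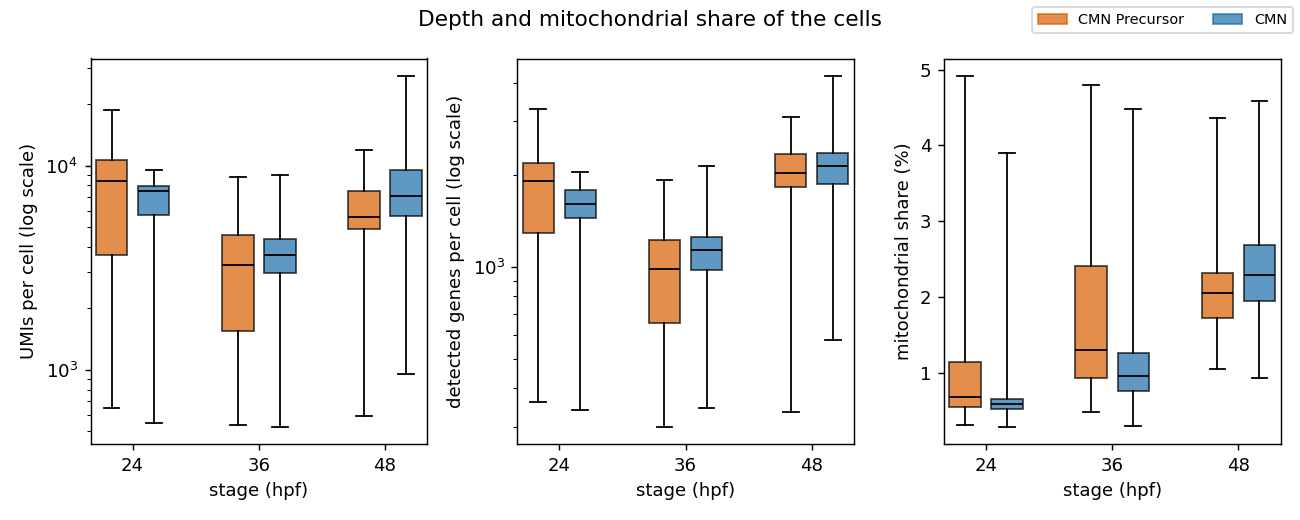
UMIs and detected genes per cell (log axes) and mitochondrial share in percent by stage in hpf for CMN Precursor and CMN, with boxes for the quartiles, a line for the median and whiskers to the lowest and highest cell. The lowest medians of UMIs and genes in both classes are at 36 hpf, where CMN Precursor has 3265 UMIs and 982 genes and CMN 3656 and 1135, and the mitochondrial share is highest at 48 hpf.

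Against cells of like depth in the same library, CMN had fewer detected genes at 24 hpf, at a log2 of -0.11 (-0.18 to -0.09) compared with -0.03 (-0.05 to -0.01) in CMN Precursor. At 36 hpf CMN was at -0.04 (-0.07 to -0.01) and CMN Precursor at -0.12 (-0.17 to -0.10), and at 48 hpf they were at -0.03 (-0.08 to 0.03) and 0.06 (0.00 to 0.13). The difference of CMN Precursor from CMN was thus 0.08 (0.06 to 0.15), -0.08 (-0.14 to -0.04) and 0.09 (0.01 to 0.18), with the sign at 36 hpf opposite to that at the other stages. MN1 to MN5 were above the cells of like depth at each stage, at 0.05, 0.21 and 0.08. CMN was below them at each stage, and its interval did not overlap theirs at any stage. Pre-MN, at -0.01 (-0.07 to 0.03), -0.04 (-0.07 to -0.01) and -0.06 (-0.08 to -0.05), was at the level of CMN at 36 hpf.

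The mitochondrial share of the UMIs was higher at each later stage in both classes, as in all cells of the libraries. Its median was 0.678% in CMN Precursor and 0.589% in CMN at 24 hpf, 1.30% and 0.958% at 36 hpf, and 2.06% and 2.29% at 48 hpf, with 0.686%, 1.06% and 2.35% in all cells. CMN Precursor was above CMN by 0.0897 points at 24 hpf (0.00974 to 0.165) and by 0.338 points at 36 hpf (0.165 to 0.627), and at 48 hpf the difference was -0.237 points (-0.595 to 0.0684). Among cells paired on UMI count it was 0.0236 points at 24 hpf (-0.101 to 0.249), 0.204 (-0.00159 to 0.448) at 36 hpf and -0.381 (-0.886 to 0.0551) at 48 hpf. No difference had an interval clear of 0 in these fewer cells, 29, 68 and 17 per class. At 36 hpf CMN Precursor ranked 6 and CMN 20 from the highest of 24 classes in this share, and whether the larger part of shallow cells in CMN Precursor has a part in it was not tested beyond that pairing.

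Libraries shared few barcodes. Of the cell barcodes 7 were found at both 24 and 36 hpf and 0 at 48 hpf and an earlier stage, and none of them belonged to a cell of the pair.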

How the data were processed

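EGFP-positive cells were sorted and captured with the 10x Chromium 3' kit, 1 library per stage. The submitters' processing notes name Cell Ranger, Seurat and GRCz11. Neither their versions nor the cell filters or the handling of doublets could be read from the labels or headers. UMIs and detected genes are unnormalised counts per cell as deposited. The share of mitochondrial UMIs was deposited as a percent. The authors deposited S, G2M and UMAP values as scores, and no list of the scored genes was used.

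The integrated and stage tables were joined by barcode, and UMIs were equal in both for all 473 cells. Each stage being 1 library, nothing was tested between stages or classes. Shares have exact (Clopper-Pearson) intervals, medians have order-statistic intervals, and intervals of differences combine those of both values, all at 95%. The intervals of shares, of medians and of differences of medians were checked on simulated data. Those of differences of shares were not. Cells were paired on UMI count by the nearest unused cell within 0.25 log2 units, and stages were brought to equal depth over 20 bins of log2 UMIs. Intervals among paired cells take the classes as separate groups and do not use the pairing. Where such an interval includes 0, the loss of cells can have a part in it. The members, classes and comparisons were chosen with earlier results of these data known. The rule named the pair, Pre-MN, MN1 to MN5, MEP Glia and stage-table names with at least 5% of a class. Names of smaller counts were added after their values were seen. Lists of marker genes could not be used without values per gene. Alternatives were the stage-table names and scores, MEP Glia inside the pair, depth matching, and limits on UMIs, mitochondrial share and scores. The work used matplotlib 3.10.9, scipy 1.17.1, pandas 2.3.3, numpy 2.4.6 and Python 3.11.15.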

Additional observations from a re-analysis of the deposited data

Results flagged for a closer look

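The difference between CMN Precursor and CMN changed direction between stages in 4 measures, and the change was not tested, since each stage is 1 library. Values are given in the order 24, 36 and 48 hpf. The log2 ratio of median UMIs was 0.160, -0.163 and -0.349, and each interval included 0. That of median detected genes was 0.253, -0.209 and -0.0772, and the last interval included 0. Detected genes against cells of like depth differed by 0.0803, -0.0799 and 0.0931 on the log2 scale, with intervals clear of 0 at each stage. The median mitochondrial share differed by 0.0897, 0.338 and -0.237 percentage points, and the last interval included 0.

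Within CMN, the difference of medians between cells named CMN Precursor and cells named CMN in the stage table changed direction from 36 to 48 hpf, again without a test. It was 316.5 and -3911 UMIs, and the interval of the first included 0. It was 0.0547 and -0.106 in S score, 0.0550 and -0.0789 in G2M score, and -0.186 and 0.193 in the log2 of detected genes against cells of like depth. These scores are those of the integrated table. By the scores of the stage tables no difference in S or G2M score was clear of 0. The share of cells called S or G2M by the integrated table was lower in cells named CMN Precursor at both stages.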

How the results depend on the processing

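Of the recomputed shares of the pair and class differences, 147 lay within the interval of the reported value and 26 lay outside it. Another 7, whose reported interval was clear of 0, took the opposite sign. A value counted as within can have an interval of its own that includes 0. An example is the S or G2M difference at 24 hpf among cells paired on UMI count, 10.3 points (-15.2 to 34.5). With the stage-table names the CMN share was 0%, 39.1% and 28.9% at 24, 36 and 48 hpf, with steps of -10.2 points from 36 to 48 hpf and 28.9 from 24 to 48 hpf. Under these names CMN Precursor differed from CMN by 0.167 points in the S or G2M share and 0.0157 points in the mitochondrial share at 36 hpf, and at 48 hpf by -0.0632 in S score, -0.0429 in G2M score and 0.218 points in the mitochondrial share. With MEP Glia inside CMN Precursor the 48 hpf share was 52.3%, the steps were -12.1 (36 to 48 hpf) and 31.9 points (24 to 48 hpf), and the class differences at 48 hpf were 76.6 points in S or G2M share, 0.63 in S score, and log2 ratios of 0.65 in UMIs and 0.23 in detected genes. At equal depth across the stages (28 cells per stage) the share, which has no interval there, was 37.7% at 24 hpf and 54.2% at 36 hpf, with steps of 16.5, 24.9 and 41.3 points (24 to 36, 36 to 48 and 24 to 48 hpf). In cells named alike by both tables, a set chosen after seeing the data, it was 0%, 58.4% and 100%, with steps of 58.4, 41.6 and 100 points. No 24 hpf cell was named CMN by the stage table, and no CMN Precursor cell kept its name at 48 hpf. The names thus fixed the direction of these steps, and likewise that of the steps from 24 hpf by the stage-table names. With the scores and phases of the stage tables the differences at 48 hpf were -22.2 points in S or G2M share, -0.0208 in S score and -0.0320 in G2M score, and that in S score at 36 hpf was 0.0428. With at least 2000 UMIs the log2 ratio of detected genes at 36 hpf was -0.0330. Each changed value under other names or tables follows from other cells or scores being compared, and the cause of the others was not tested. Dividing UMIs by the library median leaves the ratio of the classes as it is, so the 3 values of that setting, counted as within, could not change. The 24 hpf stage table named no cell CMN, and the tables share no CMN Precursor cell at 48 hpf, so differences could not be computed there. No paired analysis was possible because each stage has 1 library. The 48 hpf class differences rest on 18 CMN Precursor cells, and the 36 hpf cells are the shallowest of the pair.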
